A study of Mus musculus with 13 samples.

Results

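Teneurins, latrophilins and the FLRT proteins are cell surface proteins that bind one another across cell contacts, and 10 mouse genes encode the members followed here: Tenm1 to Tenm4, Adgrl1 to Adgrl3 and Flrt1 to Flrt3. They were taken by symbol from the 55487 gene IDs of an RNA-seq count table, and all 10 were found there. The 10 genes were chosen from a comparison of the same libraries, so their differences between the cell types are given as a description, with no test. The RNA came from pacemaker cells (PC) of the sinoatrial node, where each heartbeat starts, and from right atrial cardiomyocytes (RACM), the working muscle beside the node. Both were isolated by flow sorting from neonatal mouse hearts of the genotype Hcn4-GFP/Myh6-mCherry, a green reporter of the pacemaker channel gene Hcn4 and a red reporter driven by the promoter of a cardiac myosin gene. Each library is a pool of cells sorted from the node and atrial junction of 8 to 10 hearts, which the labels call a biological replicate. The labels do not say whether the pools differ in litter or day, nor give strain or sex. The libraries are numbered p0, p2 and p4 in each cell type, and what the number stands for is not given for the RNA samples. Values of the 3 libraries of a cell type are listed in the order p0, p2, p4.

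Teneurins are very large proteins that cross the membrane near one end and hold most of their length outside the cell. Latrophilins are adhesion G-protein-coupled receptors, known first as receptors of a spider venom toxin, and they bind both teneurins and FLRT proteins. FLRT proteins carry leucine-rich repeats and a fibronectin type III domain and also bind UNC5 netrin receptors and FGF receptors. In the nervous system these contacts guide axons and specify synapses, and in the mouse embryo members of the set also act outside the nervous system.

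Total counts were 18371816 to 22290996 fragments in the PC libraries and 14141151 to 19555932 in the RACM libraries. The cell labels were checked against marker genes, with values in CPM (counts per 1000000 fragments counted), scaled between libraries by the TMM method. The 6 pacemaker markers summed to 3903 to 4038 CPM in PC, against 115 to 199 CPM in RACM, where Isl1 was at 0 counts in some libraries. In the edgeR test used below, 6 of 6 were higher in PC. Hcn4, the gene of the green reporter, made up most of the PC sum, with a mean of 2612 CPM, against 48.6 CPM in RACM. Its part of the check is therefore not independent of the sort. The rest of the list averaged 65.5 (Isl1) to 380 (Smoc2) CPM in PC, against 0.0321 (Isl1) to 90.7 (Cacna1d) CPM in RACM. The 6 general cardiomyocyte markers summed to 82330 to 95670 CPM in PC, against 56460 to 86700 CPM in RACM. Of these 0 of 6 passed (1 with the p number as a replicate block). Myh6, the myosin gene of the red reporter, is on this list. Of the 5 atrial muscle markers 3 fell in PC (Nppa, Gja5 and Bmp10), while Myl7 and Sln did not pass. Myl7 went the other way, with a mean of 7847 CPM in PC, against 5545 CPM in RACM. It was the largest part of the sum of all 5, which was 8259 to 9716 CPM in PC, against 9853 to 11700 CPM in RACM. Markers of other cells were unequal between the groups. The 8 fibroblast markers, all with counts in every library, summed to 847, 960 and 2174 CPM in PC, against 1600, 3687 and 10720 CPM in RACM. The 7 macrophage markers summed to 7.98 to 31.1 CPM in PC, against 129 to 555 CPM in RACM, and 6 of 7 were lower in PC, while 1 of the 8 fibroblast markers (Postn) was, and 6 of 8 with the p number as a replicate block. The 8 neuron and glia markers summed to 37.2 to 65.0 CPM in PC, against 19.9 to 28.5 CPM in RACM, and Sox10, Tubb3 and Snap25 were among those at 0 in some libraries. Dbh, an enzyme of noradrenaline synthesis and the only one of the list to pass, averaged 42.4 CPM in PC, against 14.9 CPM in RACM. The other 7 summed to 8.36 to 14.5 CPM in PC, against 7.99 to 12.02 CPM in RACM, which overlapped. Smooth muscle and pericyte markers (6) summed to 338 to 609 CPM in PC, against 153 to 559 CPM in RACM. Acta2 alone averaged 439.5 CPM in PC, against 158 CPM in RACM, and without it the sums were 36.5 to 74.8 CPM in PC, against 70.9 to 267 CPM in RACM. Of this list Myh11 was higher and the pericyte gene Pdgfrb lower in PC, and with the replicate block 2 were higher and 3 lower. Endothelial markers (6) summed to 41.6 to 95.7 CPM in PC, against 95.7 to 160 CPM in RACM. Only Tek passed, with a mean of 10.4 CPM in PC, against 45.7 CPM in RACM. Kdr went the other way without passing, with 28.9 CPM in PC, against 19.7 CPM in RACM. Epicardial markers (4) summed to 1.37 to 1.84 CPM in PC, against 2.65 to 6.58 CPM in RACM. The part of these other cells in the differences below was not tested, and in bulk RNA fewer cells of a type and less RNA per cell cannot be told apart.

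Start-site sequences are shown for Tenm4, Tenm3 and Flrt3, the 3 members with the largest differences between the cell types. RefSeq promoters of the GRCm38.p6 assembly cover 250 bases before to 50 bases after an annotated start, and 9 of the 10 members matched, with 12 entries. Flrt1 was not among them. Capitals mark the only match, on either strand, to 4 motifs: a T-box site, a LIM homeodomain core, a GATA site and the Nkx2-5 element. The T-box site was searched as AGGTGT. The letters of the LIM homeodomain core were CTAATG, and those of the site bound by GATA factors were GATAAG. The Nkx2-5 element was searched as CACTTNA, where N is any base. T-box, LIM homeodomain, GATA and Nkx2-5 factors are known regulators of the sinoatrial node and atrium. The sequences run 5′ to 3′ on the gene's strand. They are Tenm4 at chr7:96170994-96171293 on the plus strand and at chr7:96211421-96211720 on the plus strand, Tenm3 at chr8:48674641-48674940 on the minus strand and Flrt3 at chr2:140671427-140671726 on the minus strand.
Tenm4, upstream start: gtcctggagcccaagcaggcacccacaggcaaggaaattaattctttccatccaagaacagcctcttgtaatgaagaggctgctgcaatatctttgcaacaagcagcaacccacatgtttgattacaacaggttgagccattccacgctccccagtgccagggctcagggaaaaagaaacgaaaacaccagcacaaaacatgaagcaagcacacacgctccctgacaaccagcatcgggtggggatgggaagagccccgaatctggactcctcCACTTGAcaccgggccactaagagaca
Tenm4, downstream start: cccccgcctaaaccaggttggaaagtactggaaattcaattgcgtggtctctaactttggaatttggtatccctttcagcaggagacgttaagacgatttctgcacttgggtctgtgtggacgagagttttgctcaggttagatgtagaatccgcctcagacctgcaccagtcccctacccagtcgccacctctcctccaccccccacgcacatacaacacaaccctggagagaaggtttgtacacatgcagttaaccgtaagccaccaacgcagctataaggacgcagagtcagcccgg
Tenm3: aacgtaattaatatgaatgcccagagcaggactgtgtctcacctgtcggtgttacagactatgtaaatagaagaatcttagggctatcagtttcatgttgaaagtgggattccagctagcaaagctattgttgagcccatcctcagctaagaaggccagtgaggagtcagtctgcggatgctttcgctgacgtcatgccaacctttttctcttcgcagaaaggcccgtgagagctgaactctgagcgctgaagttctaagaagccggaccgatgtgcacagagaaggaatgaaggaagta
Flrt3: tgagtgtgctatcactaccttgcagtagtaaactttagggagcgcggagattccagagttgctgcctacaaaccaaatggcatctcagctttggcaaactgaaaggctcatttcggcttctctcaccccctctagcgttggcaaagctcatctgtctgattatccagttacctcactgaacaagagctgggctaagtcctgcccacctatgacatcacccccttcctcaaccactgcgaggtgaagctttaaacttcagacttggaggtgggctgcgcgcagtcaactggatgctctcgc

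The upstream Tenm4 window held the Nkx2-5 element, whose first base lies 23 bases after the start. The downstream Tenm4 window and the Tenm3 and Flrt3 windows held no match to the 4 motifs. Across the 12 member windows, the T-box site was in 1 (Tenm2), the LIM homeodomain core in 0, the GATA site in 1 (Tenm2) and the Nkx2-5 element in 2 (Tenm4 and Adgrl2). Of all 32851 mouse promoters of the same length, 13.7% held the T-box site, 7.4% the LIM homeodomain core, 7.4% the GATA site and 11.5% the Nkx2-5 element. The base composition of the windows of these 3 genes lay near the middle of all promoters: GC content was 52.0% and 52.3% for Tenm4, 47.3% for Tenm3 and 51.3% for Flrt3, against quartiles of 45.7%, 52.7% and 61.7%. The latrophilin gene Adgrl1 had 70.0% GC with 28 CpG dinucleotides and a window of Adgrl3 had 75.3% with 40, against an upper quartile of 20 CpG over all promoters. The upstream Tenm4 window and the Flrt3 window lie at the 5′ end of the gene's span. The downstream Tenm4 window lies inside the span, as does the Tenm3 window, whose gene has its 5′ end at chr8:48843951. The Tenm2 window (chr11:36944192-36944491) and the Adgrl2 window (chr3:148954586-148954885) are internal too, with 5′ ends at 37235964 and 148990555. Which starts these cells use was not tested. These matches are a description of letters in a window.

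Of the 10 members, 9 passed the filter on low counts and 1, Tenm1, did not. Tenm1 lies on chromosome X and shares 8.3% of its exon bases with Sh2d1a. It had 0 counts in all 6 libraries, where 3 counts would equal 0.142 to 0.207 CPM, a limit that covers counting error only.

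Tenm4 was the member with the largest difference. The gene (ENSMUSG00000048078) spans chr7:96171246-96911093 on the plus strand of mm10 and encodes a teneurin that in the mouse is needed at gastrulation and for myelination. It had 379, 455 and 428 CPM in PC, against 3.32, 10.05 and 6.83 CPM in RACM. Every PC library was far above every RACM library, with no overlap. The means were 421 ± 38.3 CPM in PC and 6.73 ± 3.37 CPM in RACM (SD, n = 3 each). The log2 fold change, PC minus RACM, was 5.96 ± 0.38 (SE), a 62.2-fold ratio. Within p0, p2 and p4 separately, the PC to RACM ratio was 114, 45.3 and 62.6. Of its exon bases, 4.7% are shared with C230038L03Rik on the other strand, which had 14 counts in PC and 7 in RACM in all.

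Tenm3 (ENSMUSG00000031561, chr8:48227682-48843951, minus strand), which in the mouse guides visual and hippocampal wiring, had 136, 148 and 103 CPM in PC, against 10.6, 13.0 and 13.7 CPM in RACM. The groups did not overlap, and the lowest PC library, p4, still lay well above the highest RACM library. Means were 129 ± 23.0 CPM in PC and 12.4 ± 1.66 CPM in RACM (SD, n = 3 each), a log2 fold change of 3.37 ± 0.21 (SE), or 10.4-fold. The predicted gene Gm19744 on the other strand shares 1.1% of Tenm3's exon bases and had 271 counts in PC and 5 in RACM, so reads of the overlap cannot be assigned to either strand.

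Tenm2 (ENSMUSG00000049336, chr11:36006656-37235964, minus strand), a latrophilin ligand of neuronal synapses, had 20.3, 24.5 and 12.9 CPM in PC, against 7.87, 8.43 and 2.65 CPM in RACM. The PC libraries lay above all RACM libraries, and within each cell type p4 was the lowest. Means were 19.3 ± 5.85 CPM in PC and 6.32 ± 3.19 CPM in RACM (SD, n = 3 each), and the log2 fold change was 1.61 ± 0.45 (SE).

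**Figure D1:**
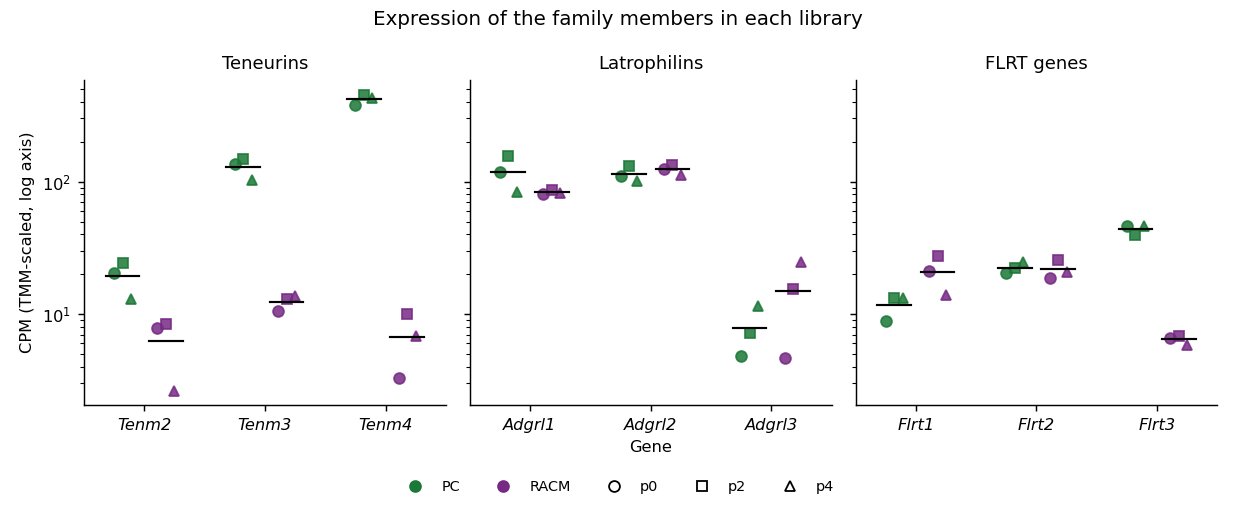
CPM of 9 members (vertical log axis) in each library, by family, with PC in green left of RACM in purple, marker shapes for p0, p2 and p4 and a black line at each mean; Tenm1 is left out at 0 counts. Tenm4, Tenm3, Tenm2 and Flrt3 lie higher in PC with no overlap, from 379 to 455 CPM in PC against 3.32 to 10.05 CPM in RACM for Tenm4.

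Of the latrophilin genes, none had libraries that separated the cell types. Adgrl1 (ENSMUSG00000013033, chr8:83900105-83941954, plus strand), the receptor of the spider toxin alpha-latrotoxin, had 117, 157 and 82.9 CPM in PC, against 80.3, 85.9 and 82.4 CPM in RACM. The PC p4 library lay among the RACM libraries, which were close together. Means were 119 ± 36.9 CPM in PC and 82.9 ± 2.82 CPM in RACM (SD, n = 3 each), and the log2 fold change was 0.52 ± 0.22 (SE). Of its exon bases 15.6% are shared with 3 predicted genes, which had 0 to 46 counts per cell type.

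Adgrl2 (ENSMUSG00000028184, chr3:148815583-148990555, minus strand), which specifies hippocampal synapses in the mouse, had 110, 131 and 100.3 CPM in PC, against 126, 133 and 113 CPM in RACM. The ranges overlapped and both cell types held the transcript at like levels, with a log2 fold change of -0.12 ± 0.16 (SE). Adgrl3 (ENSMUSG00000037605, chr5:81020138-81825133, plus strand), a receptor of FLRT3 in neurons, had 4.85, 7.18 and 11.4 CPM in PC, against 4.63, 15.4 and 24.8 CPM in RACM. Its groups overlapped, and p4 was highest and p0 lowest in both cell types, the same order as the fibroblast markers. The log2 fold change was -0.93 ± 0.56 (SE) and was -0.35 without RACM p4.

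Of the FLRT genes, Flrt3 alone lay higher in PC with no overlap. Flrt3 (ENSMUSG00000051379, chr2:140650914-140671469, minus strand), known in the mouse for basement membrane integrity in the embryo and for axon guidance, had 46.3, 39.7 and 45.97 CPM in PC, against 6.63, 6.88 and 5.82 CPM in RACM. Libraries within each cell type were close, and all PC libraries were far above all RACM libraries. Means were 44.0 ± 3.72 CPM in PC and 6.44 ± 0.553 CPM in RACM (SD, n = 3 each), and the log2 fold change was 2.77 ± 0.20 (SE), or 6.83-fold.

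Flrt3 lies inside the span of Macrod2, a gene of the other strand with which it shares no exon base. Macrod2 had 29.2, 36.4 and 45.5 CPM in PC, against 10.8, 9.27 and 8.03 CPM in RACM. It too was higher in PC, by a log2 fold change of 1.98 ± 0.24 (SE), with adjusted p = 0.00198 in the edgeR quasi-likelihood test. Flrt1 lies inside Macrod1 in the same way, and Macrod1 averaged 13.8 ± 3.25 CPM in PC, against 13.9 ± 4.86 CPM in RACM (SD, n = 3 each), a log2 fold change of 0.00 ± 0.33 (SE). Both hosts were looked up by position after the members' values were seen.

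Flrt2 (ENSMUSG00000047414, chr12:95692226-95785215, plus strand), needed for the epicardium and heart of the mouse embryo, had 20.3, 22.1 and 24.9 CPM in PC, against 18.8, 25.7 and 20.9 CPM in RACM. The libraries of the cell types were interleaved. The log2 fold change was 0.04 ± 0.21 (SE) and was -0.02 with upper-quartile scaling, so its sign was not fixed. Flrt1 (ENSMUSG00000047787, chr19:7092001-7105729, minus strand), another FLRT gene, had 8.92, 13.2 and 13.2 CPM in PC, against 21.1, 27.4 and 14.05 CPM in RACM. All PC libraries were below all RACM libraries, but the p4 libraries were nearly equal. The log2 fold change was -0.82 ± 0.30 (SE).

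**Figure D2:**
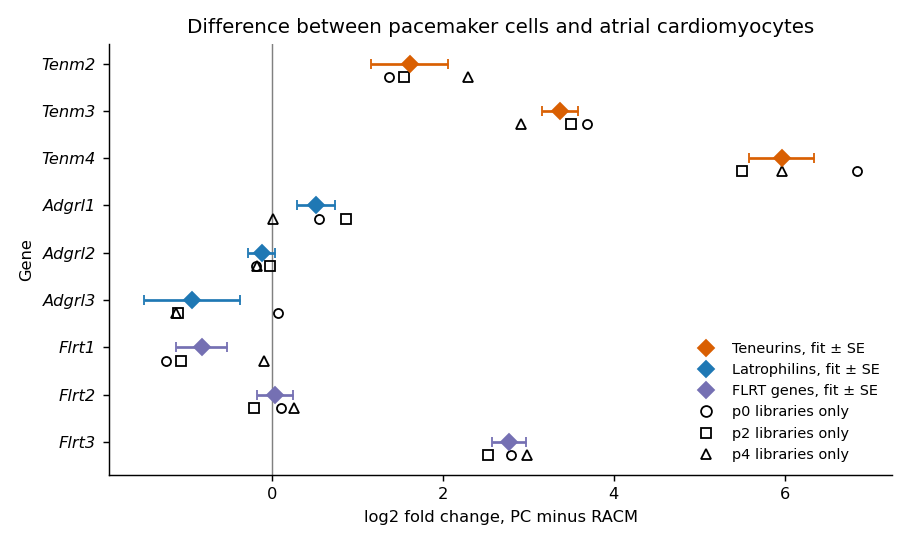
Log2 fold change, PC minus RACM (horizontal axis), of the 9 members tested, as diamonds with SE bars coloured by family, and below each the ratio within p0, p2 and p4. Tenm4 stands at 5.96, Tenm3 at 3.37 and Flrt3 at 2.77, and Adgrl2 and Flrt2 lie near 0.

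Across all 18015 genes tested, edgeR called 665 genes (3.69%) higher in PC and 644 (3.57%) lower, at an adjusted p below 0.05. Of the 9 members tested, 3 (Tenm3, Tenm4 and Flrt3) were on the higher side of that threshold and 0 on the lower side. With the p number added as a replicate block, the shares of all genes were 5.96% higher and 5.6% lower, and 4 members were on the higher side, with Tenm2 the added one. Among all genes, the PC libraries lay above every RACM library for 13.5% and below for 13.4%, and for 4 and 1 of the 9 members. The median log2 fold change was 0.52 over the 9 members and 0.01 over all genes tested. Since the members were chosen from this contrast, nothing is read from these counts.

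Levels of different genes can be compared only per length, and FPKM, the CPM divided by the kilobases of exon, was used for this. In PC the mean levels were 20.0 ± 1.82 FPKM for Tenm4, 13.8 ± 4.30 for Adgrl1, 12.6 ± 2.25 for Tenm3, 9.04 ± 0.765 for Flrt3 and 8.01 ± 1.09 for Adgrl2 (SD, n = 3). Below them came Flrt2 at 2.91 ± 0.304 FPKM, Flrt1 at 2.01 ± 0.421, Tenm2 at 1.68 ± 0.51 and Adgrl3 at 0.441 ± 0.188. Library ranges overlapped between the neighbours Tenm4 and Adgrl1, Adgrl1 and Tenm3, Flrt3 and Adgrl2, and Flrt1 and Tenm2, so those orders are not beyond the spread.

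In RACM the order was different. Adgrl1 led at 9.65 ± 0.328 FPKM, then Adgrl2 at 8.71 ± 0.72, Flrt1 at 3.55 ± 1.14, Flrt2 at 2.82 ± 0.456 and Flrt3 at 1.32 ± 0.114 (SD, n = 3). Tenm3 followed at 1.22 ± 0.162 FPKM, Adgrl3 at 0.842 ± 0.569, Tenm2 at 0.551 ± 0.278 and Tenm4 at 0.320 ± 0.160. Neighbouring ranges overlapped from Flrt3 down to Tenm4 and between Flrt1 and Flrt2. Among the 18015 genes tested, Tenm4 stood at percentile 88.6 in PC and 7.1 in RACM by FPKM, and Adgrl1 at 83.5 in PC and 77.8 in RACM.

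Summed over each family, the teneurins had 33.1, 38.2 and 31.6 FPKM in PC, against 1.88, 2.49 and 1.90 FPKM in RACM. The latrophilins had 21.7, 27.8 and 17.4 FPKM in PC, against 18.5, 20.2 and 18.9 FPKM in RACM. The FLRT genes had 13.7, 13.3 and 14.9 FPKM in PC, against 7.40, 9.40 and 6.29 FPKM in RACM. Teneurin and FLRT sums did not overlap between the cell types, and latrophilin sums did.

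The make-up within the families also differed. Tenm4 made up 58.5 ± 5.26% of teneurin FPKM in PC and 14.9 ± 5.74% in RACM, while Tenm3 made up 36.6 ± 4.23% in PC and 59.0 ± 10.3% in RACM (SD, n = 3 each). Flrt3 made up 64.8 ± 4.29% of FLRT FPKM in PC and 17.5 ± 2.15% in RACM. Flrt1 had the largest mean share in RACM, 45.4 ± 6.44%, against 14.4 ± 2.97% in PC. Flrt2 had 37.1 ± 5.25% in RACM, and in RACM p4 it had 43%, against 38% for Flrt1. Adgrl1 was the largest latrophilin share in both, with 61.3 ± 5.15% in PC and 50.3 ± 0.696% in RACM. The shares of a family are parts of one sum, so a higher share of one member lowers those of the others.

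**Figure D3:**
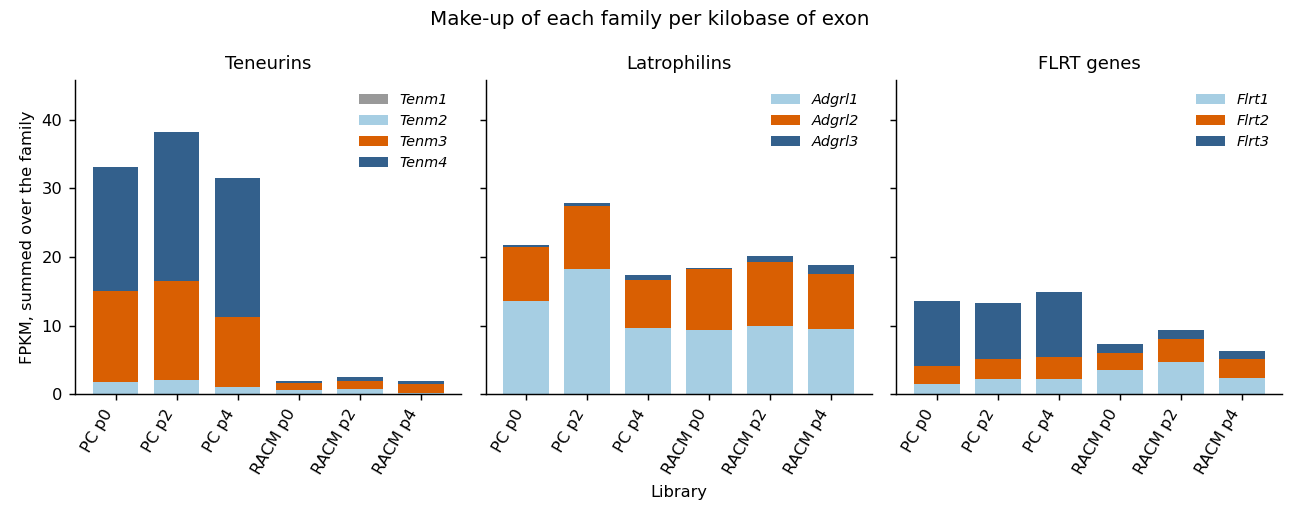
FPKM summed over each family (vertical axis) in the 3 PC and 3 RACM libraries, stacked by member. The teneurin columns stand at 31.6 to 38.2 in PC and 1.88 to 2.49 in RACM, and the latrophilin columns at 17.4 to 27.8 in PC and 18.5 to 20.2 in RACM.

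Whether the members differed with the p number was a question that the choice of members had not used. In a model with cell type, the edgeR test took p0, p2 and p4 jointly and called 1 of 18015 genes (0.00555%) and 0 of the 9 members. At an unadjusted p below 0.05 there were 2141 of all genes (11.9%) and 2 of the 9 members, Adgrl3 and Tenm2. Adgrl3 was 1.79 higher on the log2 scale in p4 than in p0 libraries (joint edgeR test, adjusted p = 0.246). Tenm2 was lower in p4 than in p0, by a log2 difference of -1.07 (joint edgeR test, adjusted p = 0.304). The p of the joint test is not that of the p4 to p0 difference alone. Adgrl3 passed the threshold in the alternatives with no filter, with DESeq2 and without PC p2, and no member passed with limma-voom. The other 7 members had adjusted p from 0.447 for Tenm4 to 0.958 for Flrt3 in the edgeR test.

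By likeness of profile, the genes nearest to Tenm4 were sought among 9286 genes with a mean of at least 10 CPM, as the smallest root mean square difference of centred log2 CPM over the 6 libraries. They were Tbx3 (0.34), a T-box factor of the conduction system, Hcn4 (0.42), the pacemaker channel and the gene of the sort reporter, and Smoc2 (0.43), a matrix protein, all 3 on the pacemaker marker list. Next were Gcgr (0.49), the glucagon receptor, and Nfasc (0.53), a neural adhesion protein. Tbx3 had 319 CPM in PC, against 5.14 CPM in RACM, and Nfasc had 106 CPM in PC and 3.30 CPM in RACM, as means of 3 libraries each. Among the members themselves, Tenm3 and Flrt3 were nearest to each other (0.40), as were Adgrl2 and Flrt2 (0.22), while Tenm4 lay 1.42 from its nearest member, Tenm3. All 6 libraries enter the measure, so it holds the difference between the cell types as well as the spread within them. Tenm4 was taken for its large difference, so only genes with a like difference could be near it. The 5 genes had log2 fold changes of 5.95, 5.75, 5.74, 5.12 and 5 in the order named. That pacemaker markers are among them follows from this choice and is a description only.

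Beyond the members, 25 other genes of the network were listed: UNC5 and FGF receptors, glypicans, netrin and its receptor, G proteins, scaffolds of latrophilins and other reported binding partners. The list was drawn up with earlier results of these data known, so the calls are not independent of the data. Of these genes, 22 were tested, and 2 rose and 0 fell in PC, where 3.69% of all genes were higher and 3.57% lower. The median log2 fold change was -0.16 over the 22 and 0.01 over all genes. Nrxn2, Cntn6 and Dcc were not tested, and Cntn6 had 0 counts in all 6 libraries.

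Unc5c, a netrin receptor of the family that FLRT proteins bind, had 68.2, 124 and 90.0 CPM in PC, against 3.45, 4.73 and 4.23 CPM in RACM. PC libraries lay far above all RACM libraries. Its log2 fold change was 4.50 ± 0.28 (SE; edgeR adjusted p = 4.38e-05), or 22.6-fold. Gpc3, a cell surface glypican reported to bind UNC5 receptors, had 94.0, 97.7 and 98.1 CPM in PC, against 38.3, 26.7 and 30.7 CPM in RACM. Again the groups did not overlap, and Gpc3 rose in PC by a log2 fold change of 1.60 ± 0.18 (SE; edgeR adjusted p = 0.00126). Both passed in all 14 alternatives.

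The other partners named here did not pass the main test. Fgfr1, a receptor that FLRT proteins bind, had 21.2, 22 and 24.3 CPM in PC, against 28.3, 47.9 and 63.5 CPM in RACM. Its log2 fold change was -1.05 ± 0.28 (SE; edgeR adjusted p = 0.0563). With the p number as a replicate block its adjusted p was 0.0281, in a range from 0.00422 to 0.191 over 14 alternatives. Unc5b, another UNC5 receptor, had 204 ± 38.2 CPM in PC and 116 ± 31.3 CPM in RACM (SD, n = 3 each) and a log2 fold change of 0.81 ± 0.23 (SE; edgeR adjusted p = 0.0738). Its PC libraries all lay above its RACM libraries. Unc5b passed in 3 of the 14 alternatives (no filter, DESeq2 and without both p4 libraries), with adjusted p from 0.00832 to 0.206 over the 14.

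Gpc6, a glypican, had 23.1, 18.6 and 31.3 CPM in PC, against 23.2, 65.2 and 234 CPM in RACM. RACM p4 held most of the difference. That library also had the highest sums of fibroblast (10720 CPM), macrophage (555 CPM) and endothelial (160 CPM) markers. Its cardiomyocyte marker sum was the lowest (56460 CPM). The part of any of these cells in the Gpc6 values was not tested. The log2 fold change was -2.14 ± 0.68 (SE; edgeR adjusted p = 0.101), and -0.86 without RACM p4. Gpc6 passed in 2 of the 14 alternatives, with no filter and without RACM p0. With the replicate block, 4 partners passed: Unc5c and Gpc3 higher, and Fgfr1 and Ntn1 lower, the netrin gene Ntn1 being named after its values were seen (log2 fold change -0.81 ± 0.30 (SE), edgeR adjusted p = 0.147 and 0.0315 with the block).

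**Figure D4:**
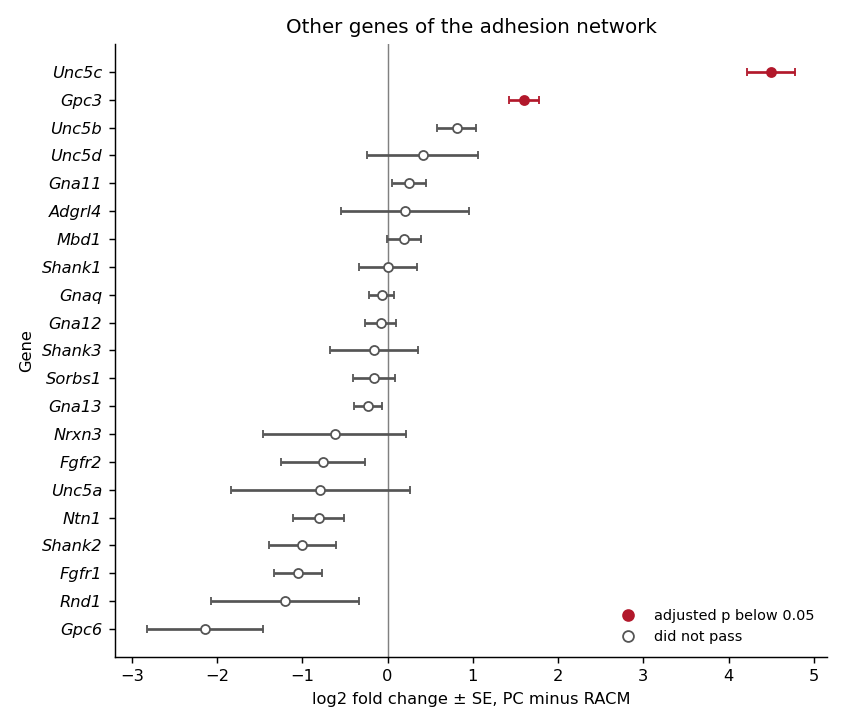
Log2 fold change, PC minus RACM, with SE bars for 21 of the 22 partner genes tested, filled red where the adjusted p was below 0.05. Unc5c at 4.50 and Gpc3 at 1.60 are the filled points.

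**Figure D5:**
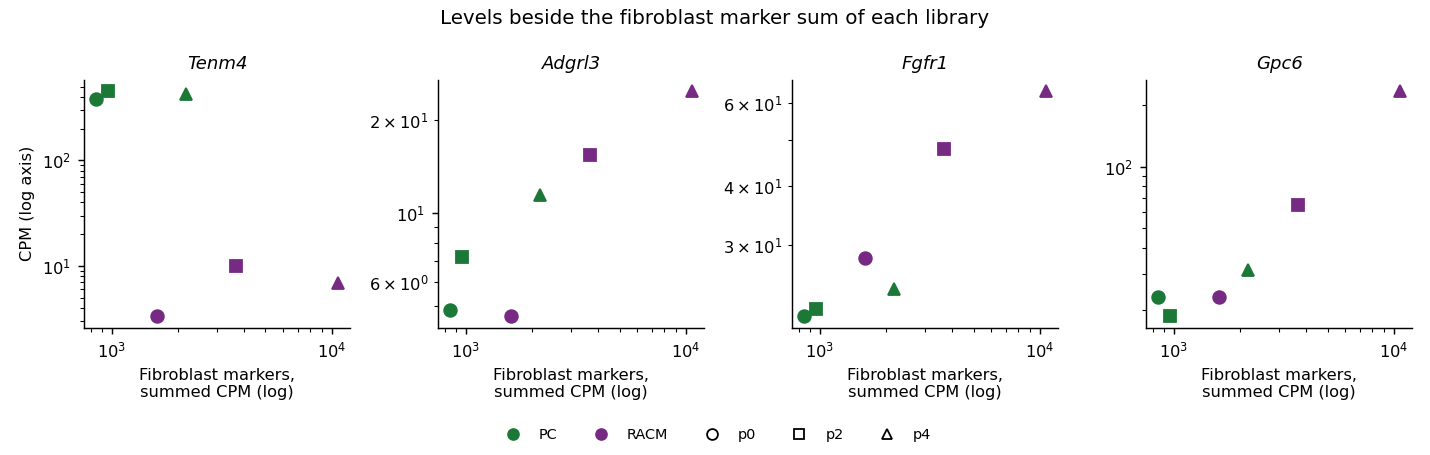
CPM of Tenm4, Adgrl3, Fgfr1 and Gpc6 (vertical log axis) against the summed CPM of the 8 fibroblast markers (horizontal log axis) in each library, PC green and RACM purple. The marker sum runs from 847 to 2174 in PC and from 1600 to 10720 in RACM. Tenm4 has 379 to 455 CPM in PC and 3.32 to 10.05 CPM in RACM. Gpc6 has 18.6 to 31.3 CPM in PC and 23.2 to 234 CPM in RACM. The part of fibroblasts in these values was not tested.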

How the data were processed

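The data are RNA-seq counts of 6 libraries, 3 of PC and 3 of RACM. The table deposited by the authors holds counts of fragments over exons per gene, made with featureCounts 2.0.1 on mm10, per the file headers, with no strand option set, so overlapping genes on opposite strands cannot be told apart. Per the submitters' processing notes, reads were trimmed with Trimmomatic and aligned with HISAT2. Per the labels' protocols, cDNA was made with an Ovation V2 kit and read as 100-bp pairs. Of the 55487 gene IDs, 55141 matched a symbol.

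Low genes were dropped with filterByExpr, grouped by cell type, at a minimum count of 10 and a minimum total of 15, and the other 18015 were tested with edgeR 4.0.16 in R 4.3.3 (TMM, glmQLFit and glmQLFTest, 2-sided, Benjamini-Hochberg adjustment over all genes, threshold 0.05). The SE of a log2 fold change is its size divided by the square root of F. FPKM divides CPM by the exon length in the table. The common biological coefficient of variation was 0.399. Alternatives were DESeq2 1.42.0, limma-voom (limma 3.58.1), other scalings and filters, the replicate block and left-out libraries. The steps were tested on simulated data. Genes named are the 10 members, the 6 partners of smallest p, of which 1 is not reported here, and the 5 genes nearest to the member of largest difference, and others are said to be chosen later. The p numbers were taken to pair the libraries because same-numbered libraries deviated together from their group means (correlations of 0.156, 0.234 and 0.237 over genes). No label states a pairing. The main PC against RACM test left this pairing out, and the replicate block used it. Replicates differed by more than sampling noise. The members, lists, motifs and tests were chosen with earlier results of these data known. P-values of the main PC against RACM test measure the spread between these pools. With the replicate block and in the p number test, they measure how far the cell types disagree across the numbers. Each number has 1 library per cell type, so a difference with the number cannot be told from a difference between pools. Another 7 samples, of ATAC-seq, were not analysed here.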

Additional observations from a re-analysis of the deposited data

How the results depend on the processing

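The log2 fold changes of 8 of the 9 members tested had the same sign in each alternative run, Flrt2 being the exception. Over the alternatives they ran from 5.65 to 6.35 for Tenm4, 3.27 to 3.56 for Tenm3, 2.64 to 2.85 for Flrt3, 1.24 to 1.88 for Tenm2, 0.28 to 0.73 for Adgrl1, -0.22 to -0.03 for Adgrl2, -1.35 to -0.35 for Adgrl3, -1.16 to -0.58 for Flrt1 and -0.09 to 0.18 for Flrt2. These values chose the members and are a description. Of all genes, 1309 were called in the main analysis, against 2339 with no filter, 2082 with the replicate block, 2304 with DESeq2, 734 without both p4 libraries and 511 to 1338 with a library left out. Partners called numbered 2, against 8 with no filter, 4 with the replicate block, 5 with DESeq2, 4 without both p4 libraries and 2 to 4 with a library left out. For the p number 1 gene was called, against 720 with no filter, 54 with a filter of 5 CPM, 670 with DESeq2, 170 with limma-voom, 0 with cell type left out of the model and 77 to 458 with a library left out, where a lone library was assumed to vary like the others. Members called for the p number were 0, against 1 with no filter, 1 with DESeq2 and 0 to 1 with a library left out. The cause of these changes was not tested. The order of members per length was the same with RLE scaling. An order by coding length was not run. Beside Fgfr1 and Ntn1, the replicate block changed no call of a named partner.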
